A study of Mus musculus with 48 samples.

Results

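Connexins and pannexins are the subunits of large-pore channels in cell membranes, and 6 genes of these families were followed: the connexin genes Gja1 (encoding Cx43), Gjb6 (Cx30), Gjb2 (Cx26) and Gjc3 (Cx29), and the pannexin genes Panx1 and Panx2. They were taken by symbol from the deposited tables and are 6 of 24421 genes listed. The series holds 48 bulk RNA-seq libraries of mouse cells labelled as astrocytes, from cortex, hippocampus and olfactory bulb. Developmental libraries came from postnatal day 1 (P1), P7 and P14, with 3 libraries for each region and age except 4 for cortex at P14, and their genotype is not given. In a second set, Gabbr1 control animals of P28 were set against animals labelled Gabbr1 cKO, where Gabbr1 encodes a subunit of the metabotropic GABA-B receptor and a cKO removes a gene in chosen cells. At P28, cortex has 4 control and 4 cKO libraries, hippocampus 2 and 4, and olfactory bulb 3 of each. A tamoxifen treatment is named for both genotypes in every hippocampal and bulb library of P28 and in 2 control and 1 cKO cortical libraries. The other 5 cortical libraries, deposited in a first round, name no treatment. The Cre line behind the cKO and the way astrocytes were separated from other cells are not given in the sources used here. Nothing in the labels says that replicates came from separate animals, so p-values measure the spread between these libraries, which may be technical.

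Connexin subunits assemble into hemichannels, and hemichannels of adjoining cells dock to form gap junctions, through which ions and small molecules pass from cell to cell. Astrocytes are coupled into networks mainly by the products of Gja1 and Gjb6, and Gjb2 has been described in astrocytes and in the meninges. Gjc3 is known best from myelinating glia. Pannexins form channels in a single membrane: the Panx1 channel releases ATP, and Panx2 is known best from neurons.

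Connexins dock through a pair of extracellular loops, each held by 3 cysteines at fixed spacing, and these loops separate the 4 connexin genes here from the 2 pannexin genes. In the coding sequences of GENCODE M21 (build GRCm38, equal to mm10), the pattern of the first loop, with 6 and then 3 codons between cysteines, occurred once in each connexin and in neither pannexin. The matching stretches are shown 5′ to 3′ on the coding strand, with the cysteine codons in capitals.
Gja1: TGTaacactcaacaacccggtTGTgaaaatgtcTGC
Gjb6: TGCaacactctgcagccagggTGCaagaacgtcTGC
Gjb2: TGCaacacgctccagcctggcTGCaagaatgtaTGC
Gjc3: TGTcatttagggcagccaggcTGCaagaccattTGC
In the second loop, 4 and then 5 codons lie between the cysteines. That pattern also occurred once in each connexin and in neither pannexin.
Gja1: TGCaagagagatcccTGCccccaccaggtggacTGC
Gjb6: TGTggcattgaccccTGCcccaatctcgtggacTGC
Gjb2: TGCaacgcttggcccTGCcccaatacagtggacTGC
Gjc3: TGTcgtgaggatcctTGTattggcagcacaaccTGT
The codons of these stretches are 54 to 65 and 187 to 198 in Gja1, and 53 to 64 and 169 to 180 in both Gjb6 and Gjb2. In Gjc3 they are 64 to 75 and 181 to 192. Gjb6 and Gjb2 were the closest pair, with 75.8% of aligned coding bases identical and no shared exact run in their transcripts longer than 20 bases. The coding sequence lies in 1 exon in Gja1, Gjb6 and Gjb2, in 2 exons in Gjc3, in 5 in Panx1 and in 3 in Panx2.

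On GRCm38, Gja1 lies on the plus strand at chr10:56377330-56402513, and Panx2 on the plus strand at chr15:89059734-89073567. The other members lie on minus strands: Gjb6 at chr14:57123303-57133611, Gjb2 at chr14:57098600-57104702, Gjc3 at chr5:137953461-137963098 and Panx1 at chr9:15002128-15045478. Gjb2 and Gjb6 are neighbours, with 18600 bases between the annotated genes. RefSeq promoter windows (GRCm38.p6) were matched for 5 of the 6 genes, all but Panx2. The 250 bases before the start of Gja1 and Gjb6, which rose together, and of Panx1, which fell, are shown 5′ to 3′ on the gene's strand. None of the 3 windows overlaps an annotated M21 exon. Capitals mark matches to the 7 motifs searched on both strands: the AP-1 motif TGANTCA, the GC box GGGCGG, the CCAAT box, the TATA box TATAAA, the NFI motif TTGGCA, the SOX motif AACAAT and the STAT motif TTCNNNGAA. The windows are chr10:56377050-56377299 for Gja1, chr14:57133612-57133861 for Gjb6 and chr9:15045479-15045728 for Panx1.
Gja1: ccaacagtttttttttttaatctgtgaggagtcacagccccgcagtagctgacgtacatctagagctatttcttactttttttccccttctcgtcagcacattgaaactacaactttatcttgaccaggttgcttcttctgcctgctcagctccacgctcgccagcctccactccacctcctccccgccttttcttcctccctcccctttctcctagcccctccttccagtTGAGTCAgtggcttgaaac
Gjb6: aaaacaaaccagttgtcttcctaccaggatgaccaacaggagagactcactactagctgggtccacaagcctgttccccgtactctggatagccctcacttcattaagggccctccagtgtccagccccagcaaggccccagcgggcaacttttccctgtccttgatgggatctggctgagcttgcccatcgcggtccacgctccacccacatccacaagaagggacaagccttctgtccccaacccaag
Panx1: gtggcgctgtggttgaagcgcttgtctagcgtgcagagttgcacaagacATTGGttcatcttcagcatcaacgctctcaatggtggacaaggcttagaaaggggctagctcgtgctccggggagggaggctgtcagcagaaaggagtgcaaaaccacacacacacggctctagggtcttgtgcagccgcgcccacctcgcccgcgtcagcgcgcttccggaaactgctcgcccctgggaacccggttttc
Gja1 held 1 AP-1 match, whose first base lies 19 bases before the start, a motif found in 6.75% of 32851 windows of this length. Gjb6 matched none of the 7 motifs. Panx1 held 1 CCAAT match on the opposite strand, a motif found in 33.8% of windows. Of the windows not shown, Gjb2 held 2 GC boxes (found in 32.7% of windows) and Gjc3 held 1 CCAAT match. The TATA box is found in 12.4% of windows, the NFI motif in 12.3%, the SOX motif in 9.42% and the STAT motif in 7.02%, and none of the 5 genes had one of these. CpG dinucleotides numbered 6 for Gja1, 5 for Gjb6, 3 for Gjc3, 18 for Gjb2 and 17 for Panx1, against a median of 6 over all windows. A match is a stretch of letters and not a bound site.

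Libraries held 1773226 to 15008466 reads. Those of P14 were shallower than those of P1 in hippocampus (2539583 to 4248087 against 5098757 to 8986015). The same held in olfactory bulb (1773226 to 2669394 against 5473837 to 9062118). In cortex the ranges overlapped (7838934 to 15008466 against 14070691 to 14513455). In 2 libraries, hippocampus P28 cKO replicate 2 and olfactory bulb P28 control replicate 2, the ribosomal RNA gene Rn45s took 0.594% and 0.476% of reads, against 13.7% to 38.0% in the others. Markers of other cells were present and moved with age. The summed normalized counts of 10 neuronal markers fell from 7480 to 10600 at P1 to 287 to 545 at P14 in cortex, from 6030 to 8050 to 444 to 635 in hippocampus, and from 14700 to 18300 to 1970 to 3190 in olfactory bulb. The sum of the 8 astrocyte markers other than Gja1 and Gjb6 went from 20600 to 27200 at P1 to 491000 to 550000 at P14 in cortex, from 12900 to 14700 to 422000 to 456000 in hippocampus, and from 4660 to 6660 to 120000 to 137000 in olfactory bulb. All 8 were detected in every group. Gabbr1 itself fell in the P28 cKO libraries of cortex, from a mean of 1440 to 133 (limma log2 difference -3.45, SE 0.29, adjusted p = 4.4e-05). Its cKO libraries also lay wholly below the controls in hippocampus (802 to 239) and olfactory bulb (230 to 80.5), where the adjusted p was 0.936 and 0.877.

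Between P1 and P14 the astrocyte connexins Gja1 and Gjb6 rose in all 3 regions. Gjb2 rose with them, at far lower counts than Gja1. Gjc3 rose in cortex and olfactory bulb, and Panx1 fell in all 3 regions. Panx2 had the smallest differences. It was called lower in cortex, a call lost under several settings, and was not called in hippocampus or olfactory bulb. Values are the authors' normalized counts, and log2 differences are on the scale log2(value + 1), tested with limma and adjusted by Benjamini-Hochberg over all genes of a table with a mean of at least 10. In these bulk samples, fewer cells of a type and less RNA per cell cannot be told apart. In cortex at P14 against P1, 4 of the 6 members passed the test as higher and 2 as lower, where 24.0% of all genes tested were called higher and 40.3% lower. In hippocampus 3 members were higher and 1 lower, on a background of 21.0% and 28.5%. Olfactory bulb had 4 higher and 1 lower, on a background of 24.8% and 31.4%. Between P1 and P14 the libraries did not overlap for all 6 members of the cortical table, 4 of the hippocampal and 5 of the bulb table, as for 63.7%, 54.7% and 62.2% of all genes. At P7 against P1, members called numbered 5, 2 and 4 in the same order of regions (background 33.7%, 18.1% and 10.6% of genes), and all 6 had groups that did not overlap in each region (53.5%, 49.9% and 47.3%). At P14 against P7 they numbered 4, 3 and 3 (49.8%, 30.1% and 47.0%), with 4, 2 and 4 members not overlapping (50.5%, 41.3% and 52.7%). All 6 members passed the minimum mean in each developmental table, but all except Gja1 had a group mean under 10 at one age in at least 1 region and passed there through the ages at which they are higher, so these counts are a description. The median log2 difference of the members was 2.94, 2.16 and 3.90 in cortex, hippocampus and olfactory bulb, beside -0.27, -0.29 and -0.24 over all genes tested.

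**Figure D1:**
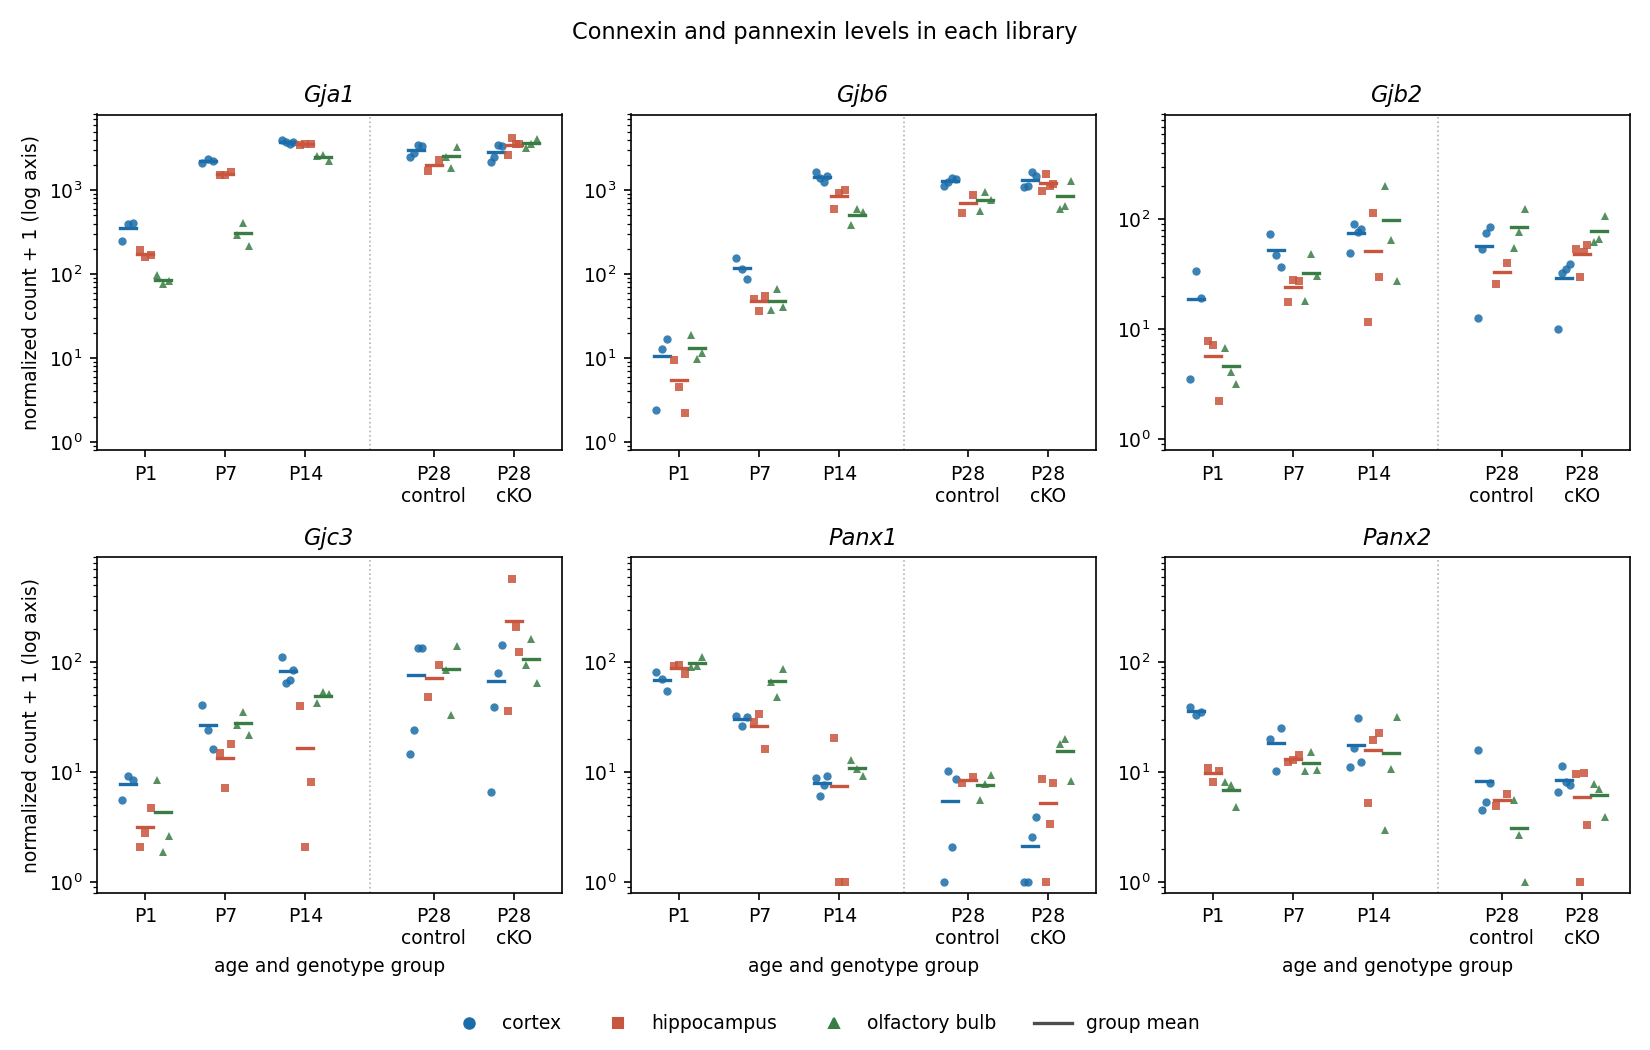
Each panel plots one gene's normalized count plus 1 (log axis) in all 48 libraries, by age and, at P28, genotype, with a point for each library, colour and shape for region and a bar for the group mean. The dotted line parts the developmental tables from the P28 tables, which were normalized separately. Gja1 and Gjb6 climb at each age, from Gja1 means of 85.0 to 350 at P1 to 2460 to 3780 at P14, and Panx1 declines.

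Gja1, the main astrocyte connexin gene, stood at 249, 397 and 404 normalized counts in the 3 cortical libraries of P1, at 2110, 2260 and 2360 at P7, and at 3520, 3800, 3810 and 3980 at P14. In hippocampus the values were 157, 166 and 192 at P1, 1500, 1510 and 1660 at P7, and 3490, 3510 and 3540 at P14. In olfactory bulb they were 76.2, 82.2 and 96.8 at P1, 216, 291 and 408 at P7, and 2210, 2540 and 2630 at P14. No library of one age overlapped a library of another age in any region, and the 3 hippocampal libraries of P14 lay within 50 counts of each other. The log2 difference of P14 against P1 was 3.46 in cortex (SE 0.14, adjusted p = 2.51e-10), 4.35 in hippocampus (SE 0.12, adjusted p = 8.91e-10) and 4.84 in olfactory bulb (SE 0.21, adjusted p = 4.4e-08). These were 11-fold, 20.4-fold and 28.6-fold on that scale. Fewer than 2% of genes tested had a larger positive difference in each table, and Gja1 held rank 112 (cortex, 11822 genes), 96 (hippocampus, 11578 genes) and 117 (olfactory bulb, 11490 genes).

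The steps of Gja1 were distributed differently over time in the olfactory bulb. By P7 Gja1 had made 78.2% of its log2 rise in cortex and 73.0% in hippocampus, but 37.0% in olfactory bulb. The first step was 2.71 (SE 0.15) in cortex, 3.18 (SE 0.12) in hippocampus and 1.79 (SE 0.21) in olfactory bulb. The second was 0.75 (SE 0.14), 1.17 (SE 0.12) and 3.05 (SE 0.21). All 6 of these steps passed the test, with adjusted p from 2.55e-08 to 8.98e-04. The difference between regions was not tested, because tests were kept within a table and each table holds 1 region. Of the 8 other astrocyte markers, the second step was the larger for 7 in olfactory bulb, 3 in cortex and 1 in hippocampus. The glutamate transporter gene Slc1a3, for example, had log2 steps of 1.23 and 2.22 in olfactory bulb and 1.61 and 0.52 in cortex, and the astrocyte filament gene Gfap was the bulb's exception, with 4.73 and 2.87.

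Gjb6, the other main astrocyte connexin gene, started near the limit of detection and had the largest rise of the members. The cortical libraries of P1 held 5, 47 and 61 reads, or 1.42, 11.8 and 15.7 normalized counts. Cortical values were then 86.6, 114 and 153 at P7, and 1250, 1380, 1470 and 1660 at P14. In hippocampus Gjb6 went from 1.23, 3.56 and 8.55 to 35.7, 48.9 and 53.9 and then to 599, 939 and 1010. In olfactory bulb it went from 8.81, 10.5 and 17.6 to 36.3, 39.7 and 65.8 and then to 380, 546 and 594. The 3 ages did not overlap in any region. At P14 against P1 the log2 difference was 7.48 in cortex (SE 0.48, adjusted p = 1.81e-08), 7.50 in hippocampus (SE 0.48, adjusted p = 2.3e-07) and 5.28 in olfactory bulb (SE 0.33, adjusted p = 4.56e-07). Gjb6 ranked 4th in positive difference among all genes tested in both cortex and hippocampus, and at 67 in olfactory bulb.

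In cortex and hippocampus a smaller share of the rise of Gjb6 than of Gja1 had come by P7, a difference that was not tested. Gjb6 had made 51.5% of its log2 rise by P7 in cortex and 44.5% in hippocampus, and 35.3% in olfactory bulb, where the corresponding figure for Gja1 was 37.0%. The P14 against P7 step of Gjb6 was 3.63 in cortex (SE 0.48), 4.16 in hippocampus (SE 0.48) and 3.42 in olfactory bulb (SE 0.33), with adjusted p of 4.16e-05, 1.11e-04 and 1.96e-05. The plot of both steps shows Gja1 and Gjb6 together in the bulb and apart in the other regions at the second step.

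**Figure D2:**
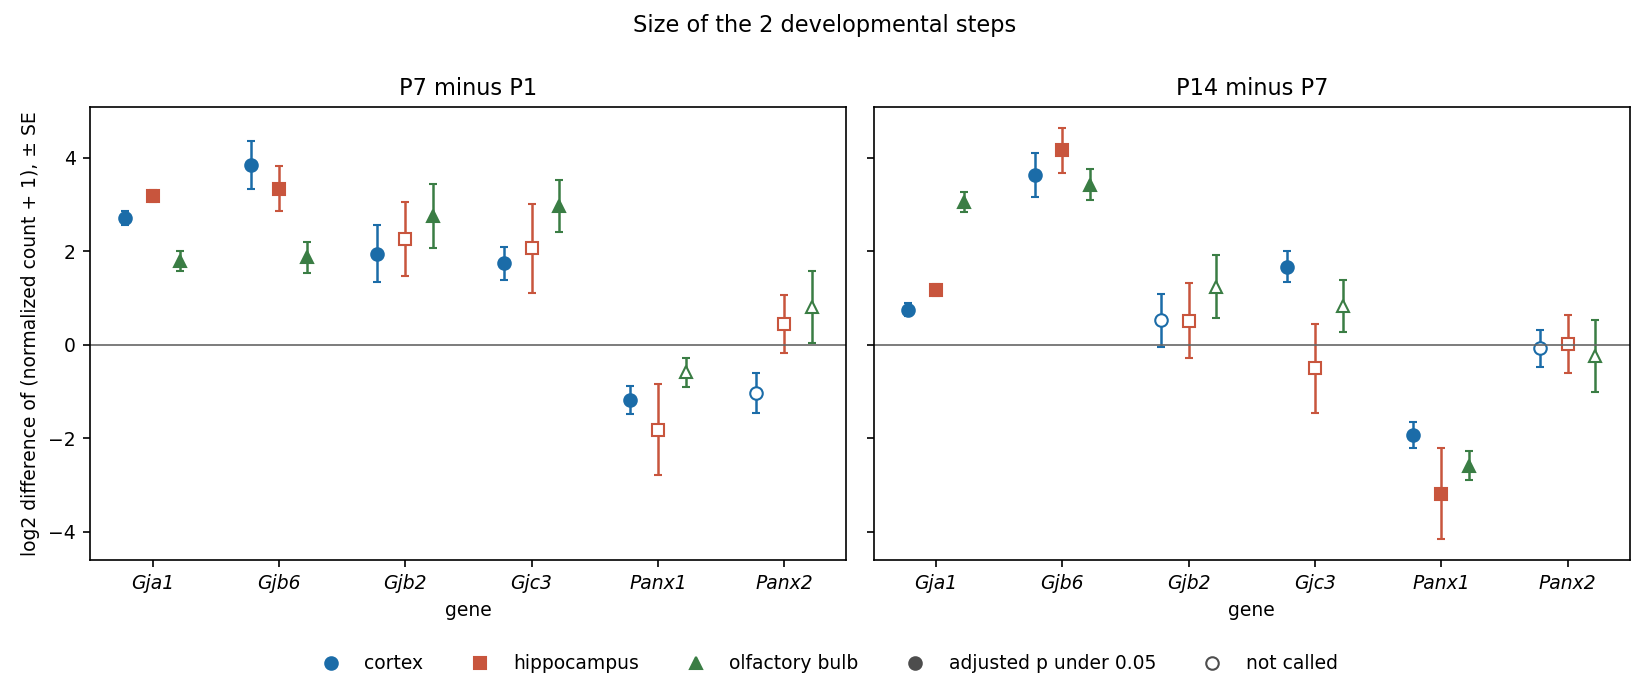
Log2 differences of (normalized count + 1) with their SE for each gene, P7 minus P1 on the left and P14 minus P7 on the right, by region. Filled symbols passed an adjusted p of 0.05 and open symbols did not. Gja1 in cortex and hippocampus has a large first step and a second step of 0.75 and 1.17, while the second step of Gjb6 is 3.42 to 4.16.

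The count of Gjb6 as a percent of that of Gja1 in the same library does not depend on how libraries were scaled. In cortex it was 0.571%, 2.98% and 3.87% at P1, 3.83% to 7.29% at P7, and 35.5% to 41.7% at P14. In hippocampus it was 0.738% to 4.44% at P1, 2.38% to 3.25% at P7, and 17.1% to 28.7% at P14. Most of this shift thus lay between P7 and P14 in both regions, with no overlap between those ages. The olfactory bulb had another course: 11.6% to 18.1% at P1, 12.4% to 18.4% at P7 and 15.0% to 24.7% at P14, ranges that overlap. At P1 every bulb library lay above every cortical and hippocampal library, a difference that was not tested. At P28 the percent in control libraries was 40.4% to 45.5% in cortex, and 31.5% and 38.2% in hippocampus. In olfactory bulb it was 22.2%, 23.0% and 52.9%, the last in the library with little Rn45s. Which of the 2 genes has more transcripts per kilobase depends on the gene model. With the longest coding transcript (3071 bases for Gja1, 2105 for Gjb6) the Gjb6 level per kilobase in cortex at P14 was 51.7% to 60.9% of that of Gja1, and with all annotated exons joined (10257 and 2674 bases) it was 136% to 160%.

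**Figure D3:**
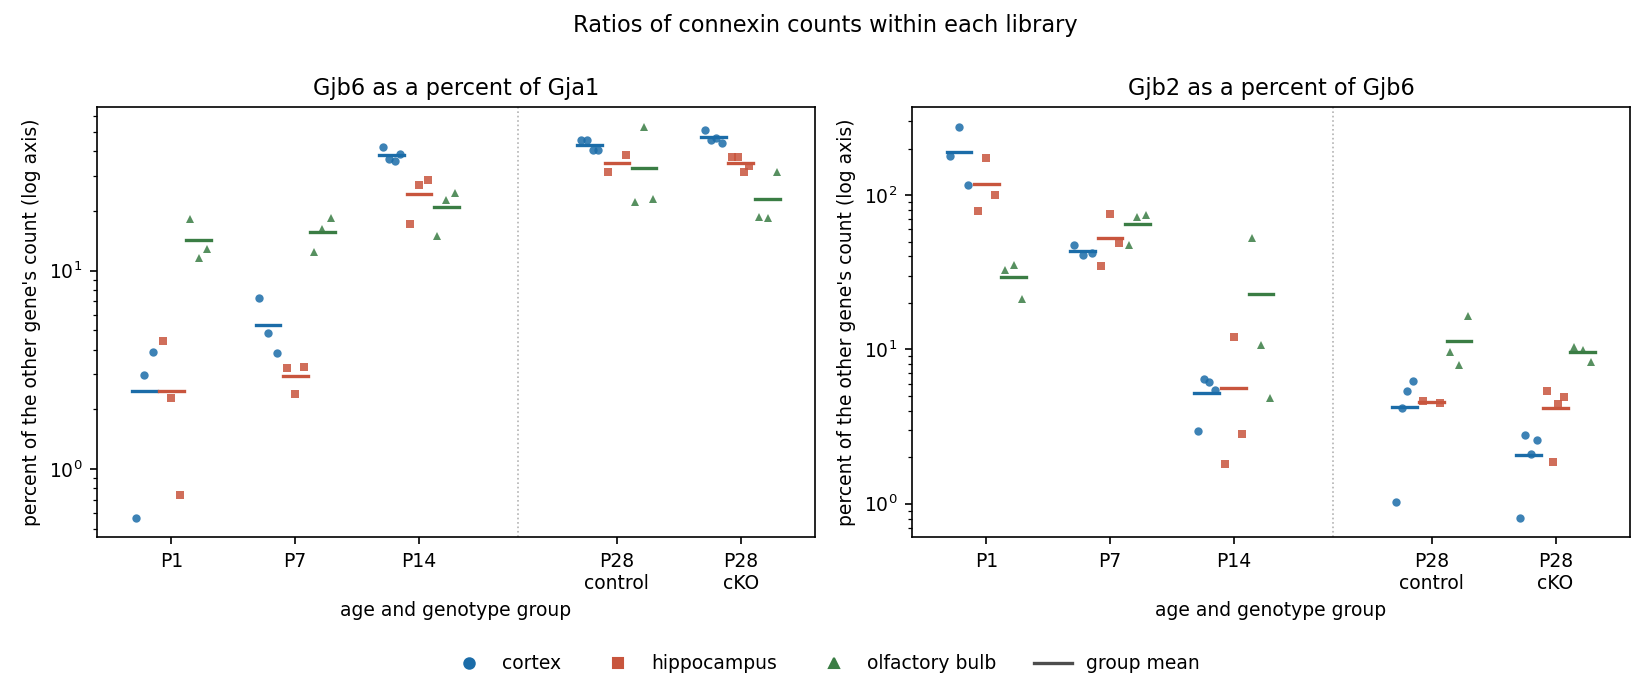
Left, Gjb6 as a percent of Gja1, and right, Gjb2 as a percent of Gjb6, each from counts of the same library (log axes), with a point for each library and a bar for the group mean. Gjb6 rises from a few percent of Gja1 at P1 to 35.5% to 41.7% in cortex at P14, while in olfactory bulb it starts at 11.6% to 18.1%.

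Gjb2, a second gap junction gene of the same subfamily and the genomic neighbour of Gjb6, rose too, but at low counts and with a wide spread. In cortex it stood at 2.56, 18.2 and 32.7 normalized counts at P1, at 36.3, 46.4 and 73.3 at P7, and at 48.8, 76.0, 80.0 and 89.3 at P14. In hippocampus it was 1.23, 6.24 and 6.77, then 16.9, 26.5 and 26.9, then 10.7, 28.7 and 114. In olfactory bulb it was 2.21, 3.08 and 5.74, then 17.2, 29.7 and 47.2, then 26.4, 63.4 and 201. P1 lay below both later ages in every region, and P7 and P14 overlapped in every region. P14 against P1 gave log2 differences of 2.46 in cortex (SE 0.57, adjusted p = 0.00186), 2.77 in hippocampus (SE 0.80, adjusted p = 0.0133) and 3.99 in olfactory bulb (SE 0.68, adjusted p = 4.86e-04). Without hippocampus P1 replicate 3, the library with 2 Gjb2 reads, the hippocampal call was lost (2.19, adjusted p = 0.0616). Without cortex P1 replicate 1, the library with 2.56 counts, the cortical difference was 1.51 (adjusted p = 0.00169), and the P7 against P1 step fell from 1.94 (adjusted p = 0.0254) to 1.00 and lost its call (adjusted p = 0.0551). This step also lost its call in limma without the trend, in a fit on the 2 ages, and without cortex P7 replicate 1 or 2. The P7 against P1 call of the bulb (2.75, adjusted p = 0.0254) was lost with a pseudocount of 8 (1.69, adjusted p = 0.0652) and without the trend. It was also lost without bulb P1 replicate 2 or 3 or P7 replicate 2 or 3. The P14 against P7 step of the bulb, 1.24 and not called (adjusted p = 0.154), was 1.93 and called without P14 replicate 3 (adjusted p = 0.0242).

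The count of Gjb2 relative to that of Gjb6 was lower in every P14 library than in every P1 library of cortex and hippocampus, and overlapped in olfactory bulb. At P1 in cortex it held 116%, 180% and 277% of the Gjb6 count, at P7 40.8% to 47.7%, and at P14 2.94% to 6.46%. In hippocampus the percents were 79.2% to 175%, 34.6% to 75.4% and 1.80% to 12.1%. In olfactory bulb they were 21.1% to 35.0%, 47.5% to 74.6% and 4.83% to 52.9%, with a maximum at P7. Some percents of P1 rest on few reads. The cortical 180% is 9 Gjb2 reads over 5 Gjb6 reads. Hippocampal libraries of P1 held 2 to 19 Gjb2 reads and 2 to 24 Gjb6 reads. The summed counts of 8 meningeal fibroblast markers, cells in which Gjb2 is known to be expressed, were 31.3 to 725 in cortex at P1 and 363 to 551 at P14. The lowest of these, 31.3, belonged to cortex P1 replicate 1, also the library with the lowest Gjb2. In hippocampus at P14 the library with 114 Gjb2 counts had the highest meningeal sum, 531, beside 60.2 and 147 in the others. In olfactory bulb at P14 the library with 201 had the highest sum, 867, beside 651 and 233. The library highest in Gjb2 was also highest in the meningeal sum in 6 of the 9 developmental groups of region and age. It was not in cortex at P14, where the library with 89.3 Gjb2 counts had the lowest sum, 363, in hippocampus at P7, where the library with 26.9 had the lowest, 509, or in olfactory bulb at P7, where the library with 47.2 had 731 and the highest sum was 818. In groups this small, some matches arise with no link between the values, and no other marker list is set beside this count. The P28 groups were not counted. The part of meningeal cells in the Gjb2 values was not tested.

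Gjc3, a connexin gene of myelinating glia, rose in cortex and olfactory bulb. Cortical libraries held 4.55, 7.44 and 8.31 normalized counts at P1, 15.4, 23.2 and 39.8 at P7, and 63.5, 67.8, 84.6 and 110 at P14, with no overlap between ages (P14 against P1 log2 3.41, SE 0.34, adjusted p = 1.27e-06). Bulb libraries held 0.881, 1.65 and 7.53, then 20.8, 25.8 and 34.3, then 41.7, 50.0 and 52.4 (log2 3.81, SE 0.55, adjusted p = 1.67e-04). In hippocampus the values were 1.07, 1.78 and 3.69 at P1, 6.26, 13.9 and 17.0 at P7, and 1.10, 7.17 and 38.7 at P14, so P14 overlapped both other ages. The hippocampal difference of 1.55 (SE 0.96) was not called (adjusted p = 0.20), but it was called by edgeR (2.97, adjusted p = 0.0309) and DESeq2 (2.98, adjusted p = 0.0164) on whole reads, and without P14 replicate 2 (2.59, adjusted p = 0.0168), a library with 1 Gjc3 read. Mature oligodendrocyte markers moved in the same samples: the sum of 8 such genes went from 342 to 405 at P1 to 15400 to 26200 at P14 in cortex, from 78.3 to 96.2 to 1610 to 2350 in hippocampus, and from 119 to 213 to 1940 to 2260 in olfactory bulb. At P14 the markers Mog in hippocampus and Mag in olfactory bulb were at 0 in every library. In olfactory bulb the mature sum was 312 to 374 at P7. The sum of 6 oligodendrocyte precursor markers there was 131 to 168 at P1, 536 to 1110 at P7 and 1180 to 1230 at P14. It was 1200 to 1290, 1640 to 2260 and 1050 to 1210 in cortex. In hippocampus it was 363 to 564, 1170 to 1590 and 926 to 1040. The sum of 6 olfactory ensheathing markers in the bulb was 14.9 to 53.1 at P1 and 79.9 to 280 at P14. Of these markers, Sostdc1 was at 0 in every bulb library of both ages. The list is not particular to the bulb, as its sum in cortex at P1 was 89.9 to 111. The part of oligodendrocyte, precursor and ensheathing RNA in the Gjc3 values was not tested.

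Panx1, the ATP-releasing channel gene, ran opposite to Gja1, Gjb6 and Gjb2 in all 3 regions, and to Gjc3 in cortex and olfactory bulb. In cortex it fell from 53.6, 70.0 and 79.8 normalized counts at P1 to 25.5, 30.8 and 31.2 at P7 and to 5.03, 6.62, 7.94 and 8.31 at P14. In hippocampus it went from 77.4, 90.8 and 93.6 to 15.1, 27.8 and 32.5, and then to 19.3 in one library of P14 and 0 in the other 2. In olfactory bulb it went from 89.6, 92.0 and 111 to 47.2, 65.8 and 85.4 and then to 8.33, 9.65 and 11.9. Every P14 library lay below every P1 library. The log2 difference was -3.11 in cortex (SE 0.28, adjusted p = 4.62e-07), -5.01 in hippocampus (SE 0.97, adjusted p = 0.00121) and -3.17 in olfactory bulb (SE 0.31, adjusted p = 9.64e-06). The bulb made 18.5% of its fall by P7, beside 37.8% in cortex and 36.3% in hippocampus, a difference that was not tested. By limma the P7 against P1 step was called in cortex (-1.18, adjusted p = 0.00811). It was not called in hippocampus (-1.82, adjusted p = 0.255) or olfactory bulb (-0.59, adjusted p = 0.293). Other limma settings called the hippocampal step: a pseudocount of 8 (-1.56, adjusted p = 0.0276) and quantile normalization (-2.12, adjusted p = 0.0344). Array weights (-1.60, adjusted p = 0.00177) and a fit on the 2 ages (-1.82, adjusted p = 2.75e-04) did so too. The bulb step was called with array weights (-0.68, adjusted p = 0.0232). At P14 the values rest on 0 to 21 reads a library. The second step in hippocampus (log2 -3.19, adjusted p = 0.0282) lost its call in edgeR (-1.78, adjusted p = 0.145) and DESeq2 (-1.83, adjusted p = 0.0884), and without any 1 of 5 of its 6 libraries. The neuronal marker sums given above fell over the same ages, and their part in the fall of Panx1 was not tested.

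Panx2, the pannexin gene known best from neurons, was higher in cortex at P1 than later, and had no such course in the other regions. Its cortical values were 32.0, 34.4 and 37.8 at P1, 9.28, 19.0 and 24.0 at P7, and 10.2, 11.4, 15.7 and 30.0 at P14. All P1 libraries lay above all later ones (P14 against P1 log2 -1.12, SE 0.40, adjusted p = 0.0243). This call was lost with TMM scaling (-0.85, adjusted p = 0.0755), with quantile normalization (-0.50), in edgeR (-0.81) and DESeq2 (-0.79), and without P1 replicate 1 or 3 or P14 replicate 1 or 4. In hippocampus Panx2 stood at 7.13, 9.22 and 9.97 at P1, 11.5, 11.9 and 13.2 at P7, and 4.30, 18.7 and 21.5 at P14. In olfactory bulb it stood at 3.86, 6.60 and 7.17, then 9.22, 9.49 and 14.3, then 1.99, 9.65 and 30.5. The P14 against P1 differences of 0.46 (SE 0.62, adjusted p = 0.57) and 0.58 (SE 0.77, adjusted p = 0.541) were not called, with P14 libraries on both sides of those of P1. The hippocampal difference was called with quantile normalization (1.78, adjusted p = 0.0177), and that of the bulb without P14 replicate 1, its library with 1.99 counts (1.45, adjusted p = 0.0471).

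Levels compared per kilobase of the longest coding transcript put Gja1 first in every region at P14, with means of 1230, 1140 and 801 normalized counts per kilobase in cortex, hippocampus and olfactory bulb. Gjb6 followed with 684, 404 and 241, an order that reverses in cortex, and in 1 or more hippocampal libraries, with the joined exons described above. Gjb2 stood at 30.6, 21.2 and 40.3, and Gjc3 at 20.3, 3.91 and 12. Panx2 stood at 4.96, 4.38 and 4.15, and Panx1 at 1.22, 1.13 and 1.74. At P14 the libraries of Gjb2 and Gjc3 overlapped on this scale in every region, and those of Panx1 and Panx2 in hippocampus and olfactory bulb. In hippocampus Panx2 also overlapped Gjb2 and Gjc3, and Panx1 overlapped Gjc3. At P1 the order differed: Panx1 had 11.8, 15.2 and 17.0 normalized counts per kilobase, beside 4.58, 2.11 and 5.84 for Gjb6, while Gja1 had 114, 56.0 and 27.7.

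Among the 17 other connexin and pannexin genes, 2 reached the minimum mean in at least 1 table, 5 had at most 3 reads in every library, and 10 exceeded 3 reads somewhere but were tested nowhere. Gjc1, which encodes a connexin of vascular and neuronal cells, fell in cortex from a mean of 79.0 (SD 14.1) at P1 to 12.8 (SD 10.3) at P14 (log2 -2.82, SE 0.47, adjusted p = 1.36e-04). In hippocampus its P14 libraries held at most 3 reads, against a P1 mean of 88.5, which makes the level at least 22.3-fold lower. In olfactory bulb Gjc1 had means of 40.7, 27.7 and 44.2 and was not called. Gjd2, the main connexin gene of neuronal electrical synapses, was at 0 in the hippocampal libraries of P14 and had averaged 25.0 (SD 4.11) at P1, at least 6.31-fold more. In olfactory bulb Gjd2 fell from 14.6 to 4.34 (log2 -2.21, SE 0.80, adjusted p = 0.0339). These folds use a floor of 3 reads per library.

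Of 25 genes whose products bind, anchor, modify or act with connexins and pannexins, 22 were tested in each developmental table. At P14 against P1, cortex had 7 of them called higher and 9 lower, hippocampus 8 and 3, and olfactory bulb 10 and 4. Of all genes tested, 24.0% rose and 40.3% fell by the same threshold for the cortical table. The hippocampal shares were 21.0% and 28.5%, and those of the bulb 24.8% and 31.4%. Whether partners were called more often than other genes was not tested. The partners' median log2 differences were -0.30, 0.12 and 0.31, beside -0.27, -0.29 and -0.24 over all genes tested. Hepacam, an adhesion protein of astrocyte junctions, and Mlc1, its membrane partner, rose in all 3 regions. Hepacam rose on the log2 scale by 2.03 in cortex, where its means were 1110 and 4520, by 2.61 in hippocampus, from 592 to 3610, and by 4 in olfactory bulb, from 157 to 2460, with adjusted p of 2.44e-09, 2.3e-08 and 1.65e-06. For Mlc1 the log2 differences were 2.26, 3.23 and 3.99. Tjp1, which encodes the scaffold ZO-1 that anchors Cx43, had differences of 1.63, 1.54 and 1.89, all called. Nedd4, a ubiquitin ligase that acts on Cx43, fell in cortex (-0.55, SE 0.08, adjusted p = 4.22e-05) and was not called in hippocampus (-0.16) or olfactory bulb (-0.15). P2rx7, an ATP receptor that acts with Panx1 channels, rose in cortex from 40.7 to 69.2 (0.77, SE 0.26, adjusted p = 0.0172). It was not called in hippocampus (-0.46) or olfactory bulb (0.88). The sum of 8 microglial markers went from 361 to 570 at P1 to 1260 to 2770 at P14 in cortex. In hippocampus it went from 93.6 to 138 to 226 to 616, and in olfactory bulb from 44.1 to 57.7 to 274 to 460. The part of microglia in the P2rx7 values was not tested.

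The genes whose pattern over the 28 developmental libraries was most like that of each member were ranked by the mean of the 3 within-region Pearson correlations of log2 values, over 10446 genes, as a description with no test. For Gja1 they were Sash1 (mean r 0.995), Slc4a4 (0.993), Slc1a3 (0.993), Tmem229a (0.990) and Me1 (0.990), of which Slc4a4 encodes a bicarbonate transporter of astrocytes and Slc1a3 a glutamate transporter. For Gjb6 they were Glul (0.985), which encodes glutamine synthetase, Slc41a1 (0.985), Hlf (0.985), Itih5 (0.984) and Tmem47 (0.984). Panx1 had B4galnt4 (0.978), Lrrn3 (0.975), Lmnb1 (0.971), Tnrc6c (0.970) and Nacad (0.967). The other members had looser matches, with top values of 0.897 for Gjb2 (Acadl), 0.879 for Gjc3 (Stim1) and 0.751 for Panx2 (Sdk1). Between members, the mean r was 0.961 for Gja1 with Gjb6, 0.831 for Gja1 with Gjb2 and -0.939 for Gjb6 with Panx1. These points share their ages, and any gene that changes steadily with age will correlate.

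At P28 no member was called between Gabbr1 cKO and control in any region. Across all genes, limma called 0.00982% of 10188 in cortex, which is Gabbr1 alone, and 0% of the genes of the other regions (11639 in hippocampus, 11539 in olfactory bulb). The cKO and control libraries did not overlap for 1.89%, 15.0% and 10% of genes in cortex, hippocampus and olfactory bulb, and for 0, 2 and 0 of the members tested. At an unadjusted p under 0.05 there were 221, 296 and 349 genes. edgeR called 1, 0 and 0 genes and DESeq2 called 1, 1 and 22, in the same order of regions, and no member was among them. Panx1 and Panx2 fell below the minimum mean in cortex and hippocampus, as did Panx2 in olfactory bulb, so 4, 4 and 5 members were tested. Library numbers at P28 run on from region to region within a genotype and may mark shared animals, which no label states, so the differences of the 3 regions are not known to be independent.

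In cortex the main connexins were close between genotypes. Gja1 had 2490, 2770, 3350 and 3420 in control and 2160, 2480, 3390 and 3490 in cKO libraries (log2 difference -0.08, SE 0.20), and Gjb6 had 1130, 1260, 1350 and 1380 against 1100, 1130, 1480 and 1630 (0.04, SE 0.18). The groups overlapped for both. The first-round libraries held 2160 to 3490 Gja1 counts and the later ones 3350 to 3420, and cKO minus control was 0.02 within the first round and 0.00 within the later one. Gjb2 had 11.6, 52.5, 74.5 and 84.4 in control and 8.98, 31.5, 34.4 and 38.4 in cKO libraries (-0.82, SE 0.60, adjusted p = 1). Within rounds its difference was -0.21 in the first and -1.03 in the later, which has 1 cKO library. Gjc3 split by round rather than by genotype: the 3 later libraries stood at 133, 134 and 142, and the 5 first-round libraries at 5.61 to 79.1. The mature oligodendrocyte marker sum was also higher in the later round, at 8720 to 14700 against 2740 to 6210. The Gjc3 difference was -0.29 (SE 0.86) over all libraries and 0.53 within the first round.

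In hippocampus both main connexins were higher in every cKO library than in either control library. Gja1 had 1710 and 2280 in control and 2650, 3520, 3570 and 4160 in cKO libraries, and Gjb6 had 538 and 873 against 991, 1110, 1180 and 1540. Both differences were 0.80 on the log2 scale (SE 0.30), with unadjusted p of 0.0242 and 0.0268 and an adjusted p of 0.936 for each, so neither was called. Groups failed to overlap, in either direction, for 15.0% of genes tested, and the exact 2-sided permutation p was 0.133 for both, the smallest that 2 against 4 libraries can give. Without cKO replicate 2, the library with little Rn45s, the differences were 0.71 and 0.67, and without control replicate 1 they were 0.59 and 0.45. As a percent of Gja1, Gjb6 did not separate the genotypes, at 31.5% and 38.2% against 31.2% to 37.3%. Choroid plexus markers were abundant here, with a sum of 70000 and 142000 in control and 12200 to 129000 in cKO libraries, and the astrocyte marker sum was 159000 and 176000 against 121000 to 372000. The sum of 8 endothelial and mural markers was 181 and 308 in control and 361 to 607 in cKO libraries, and that of 8 microglial markers 127 and 161 against 176 to 801, so both separated the genotypes in the same direction as Gja1 and Gjb6. The part of these cells in the differences was not tested. Gjc3 ranged from 34.9 to 572 in cKO libraries, the highest in replicate 2, beside 47.7 and 93.4 in control (1.17, SE 0.89), and the difference was 0.53 without that replicate. That library also had the highest mature oligodendrocyte sum of the region, 18100. Gjb2 had 25.0 and 39.1 against 28.9 to 57.8 (0.53, SE 0.53).

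In olfactory bulb Gja1 had 1820, 2510 and 3280 in control and 3170, 3550 and 4110 in cKO libraries (log2 difference 0.54, SE 0.25, unadjusted p = 0.0534 and adjusted p = 0.877 by limma). One control library reached above the lowest cKO library. The control library with 1820 is the one with little Rn45s, and without it the difference was 0.32. That library also had a neuronal marker sum of 4320, beside 1420 and 1460 in the other controls and 1010 to 2090 in cKO libraries. Endothelial and mural markers summed to 170 to 351 in control and 353 to 604 in cKO libraries, with no overlap. Astrocyte sums overlapped, at 90800 to 130000 against 111000 to 129000. The part of these cells in the bulb differences was not tested. Gjb6 had 558, 754 and 965 against 592, 649 and 1290 (0.10, SE 0.32). Gjb2 had 54.0, 76.6 and 124 against 61.9, 64.7 and 107 (-0.08, SE 0.41), and Gjc3 had 32.3, 83.8 and 141 against 63.7, 93.7 and 163 (0.44, SE 0.54). Panx1 had 4.59, 6.81 and 8.52 against 7.24, 17.2 and 18.9 (0.95, SE 0.84, adjusted p = 0.881), values that rest on 4 to 20 reads. For none of these member genes did the groups separate. The 2 untested pannexins of the P28 tables were low in both genotypes: Panx2 means were 2.10 to 7.50 over the 6 groups, and Panx1 means were 1.12 and 4.51 in cortical cKO and control and 4.27 and 7.52 in hippocampal ones.

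**Figure D4:**
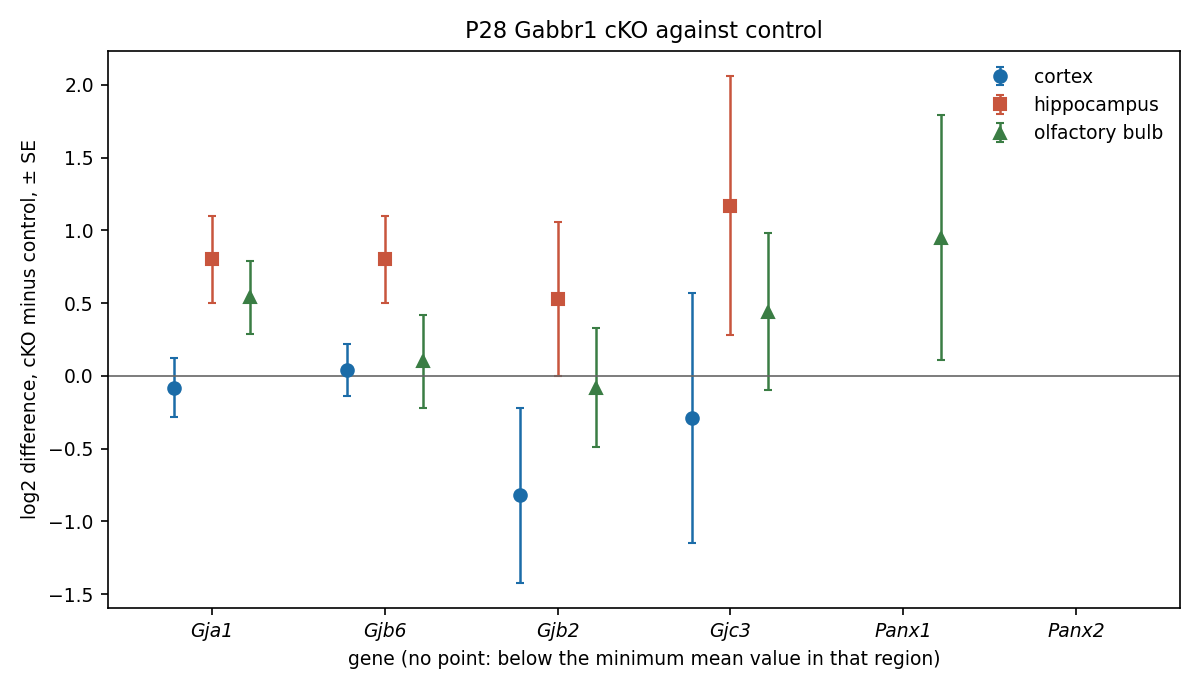
Log2 difference of cKO minus control at P28 with its SE for each gene and region, on the scale log2(normalized count + 1). Genes under the minimum mean have no point. No difference passed the test, and the hippocampal values of Gja1 and Gjb6 are both 0.80 with an SE of 0.30.

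The partner genes were not called at P28 either, in 21, 24 and 22 tests by region. Hepacam differed by 0.11 in cortex (SE 0.17), 0.50 in hippocampus (SE 0.28) and 0.41 in olfactory bulb (SE 0.24), Mlc1 by 0.02, 0.23 and 0.18, and Tjp1 by 0.03, 0.49 and -0.36. In hippocampus the Hepacam groups did not overlap, and those of Mlc1 and Tjp1 did. A p that misses the threshold in groups of this size does not show that the levels were equal.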

How the data were processed

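RNA-seq libraries of astrocytes were made from 500 pg to 1 ng of total RNA with a low-input kit (Nugen Trio), per the labels' protocols. The submitters' processing notes name STAR 2.5.0a, DESeq2 1.20.0, FastQC, MultiQC and the build mm10. The counting program, strand setting and annotation are not given in the sources used here, so reads of antisense or overlapping genes cannot be told apart. The authors deposited 6 tables of normalized signal, each with 1 region and either P1 to P14 or P28, and tests were made only within a table. In every library the signal was whole reads divided by 1 factor (100.0% of values whole within 0.01 reads), though in 1 library, an olfactory bulb P28 cKO, the factor is near 1 and this check is weak. Recovered reads gave depth (1773226 to 15008466 a library, precision limited by low counts) and fed edgeR and DESeq2 as alternatives.

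Age, region and genotype labels gave the groups. Replicates are numbered by accession, which only names a library. limma 3.58.1 with a mean-variance trend was fitted to log2(value + 1) over genes with a mean of at least 10 in the table, all ages together, or both genotypes at P28, with Benjamini-Hochberg adjustment over all genes tested and a threshold of 0.05. This understates changes of low genes. Alternatives were pseudocounts of 0.5 and 8, no filter or a minimum mean of 100, TMM, quantile and median-ratio scaling (the last added after seeing the data), limma without trend or with array weights, edgeR 4.0.16, DESeq2 1.42.0, fits on 2 ages, the deposit round in P28 cortex, and each library left out. The scripts were tested on simulated data. Single values at P28 had exact permutation tests (SciPy 1.17.1). Gene models came from GENCODE M21, promoters from RefSeq, and coding identity from Biopython 1.88. All 6 members are named, with counts for 17 other family genes and 25 partner genes, and the 5 most alike genes were sought for each member. The members and lists were chosen with earlier results of these data known.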

Additional observations from a re-analysis of the deposited data

Results flagged for a closer look

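Panx2 moved in opposite directions between P1 and P7 in different regions. In hippocampus every P7 library lay above every P1 library (log2 difference 0.44, SE 0.62, adjusted p = 0.726 by limma), and in olfactory bulb likewise (0.81, SE 0.77, adjusted p = 0.61). In cortex every P7 library lay below every P1 library (-1.04, SE 0.43, adjusted p = 0.0747). None of the 3 differences was called with the settings used throughout, but the cortical one was called with array weights (-0.92, adjusted p = 0.0356) and in a fit on only the 2 ages (-1.04, adjusted p = 0.0392). The difference between regions was not tested. Groups failed to overlap at this step for 49.9% of genes in hippocampus, 47.3% in olfactory bulb and 53.5% in cortex. None of the 24 sets of 4 libraries examined for the members was flagged for an outlying library. The rule set the gap beside the outermost library against the range of the set, and asked for a very large gap. Gjc3 in the hippocampal P28 cKO libraries, at 34.9 to 572, was not flagged. Smaller groups were not examined.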

How the results depend on the processing

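The number of members called stayed within 1.5 times its value, or at 0 at P28, except as follows. A minimum mean of 100 leaves fewer members to test and gave 2 calls in the cortex comparisons P7 against P1, P14 against P7 and P14 against P1, in hippocampus P14 against P1, and in olfactory bulb P7 against P1 and P14 against P1. In hippocampus P7 against P1, where 2 members were called, quantile normalization gave 4, array weights 5 and a fit on 2 ages 4. The cause was not tested. TMM scaling moved the median of all genes at P14 against P1 in cortex from -0.27 to 0.01, and Gja1, Gjb6, Gjb2, Gjc3 and Panx1 kept their direction and call there.

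Signs reversed only in differences that were not called. For Panx2, P14 against P7, cortex (-0.08) became 0.10 with TMM, 0.56 with quantile normalization, 0.09 with median-ratio scaling, 0.08 in edgeR and 0.11 in DESeq2. Hippocampus (0.01) became 0 with a pseudocount of 0.5, and olfactory bulb (-0.24) became 0.01 with a pseudocount of 8, 1.18 with quantile normalization, 0.50 in edgeR and 0.46 in DESeq2. Gjc3 in hippocampus P14 against P7 (-0.51) became 1.27 with quantile normalization, 0.43 in edgeR and 0.42 in DESeq2. At P28 in cortex, with the round as a covariate or only the first round, Gja1 (-0.08) became 0.01 and 0.02 and Gjc3 (-0.29) became 0.37 and 0.53, and Gjb6 (0.04) became 0 with array weights. Gjc3 in olfactory bulb (0.44) became -0.16 with array weights.

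Leaving out 1 library at a time gave these ranges where a sign reversed. In cortex P14 against P7, Panx2 -0.45 to 0.19. In cortex P28 cKO against control, Gja1 -0.18 to 0.05, Gjb6 -0.06 to 0.13 and Gjc3 -0.88 to 0.60. In hippocampus P14 against P7, Gjb2 -0.36 to 1.28, Gjc3 -0.90 to 0.53 and Panx2 -0.37 to 0.68. In olfactory bulb P14 against P7, Panx2 -0.34 to 0.64. In olfactory bulb P28 cKO against control, Gjb6 -0.26 to 0.31, Gjb2 -0.36 to 0.23 and Gjc3 -0.13 to 0.91.
No paired analysis was possible because replicates are numbered by accession and those numbers pair no libraries. Depth limits the low genes: Panx1 had 0 reads in 2 hippocampal libraries of P14, and Gjb6 as few as 2 reads at P1.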
